A study of Mus musculus with 6 samples.

Results

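A set of 10 transcription factor genes known for work in endothelial and lymphatic cells was followed in the transcriptome of SVEC4-10 cells. The labels give this name, which stands for an immortal endothelial cell line from mouse. The set was given as a list of names (Ets1, Ets2, Fli1, Erg, Sox7, Sox17, Tal1, Lmo2, Prox1 and Foxc2), and all 10 were found by Ensembl identifier among the 55536 genes of each library. There were 3 libraries from cells treated with nattokinase, a fibrin-degrading protease of Bacillus subtilis, for 24 hours, and 3 libraries from untreated control cells. Both groups were grown in the same serum-containing medium and came from a single line, and no dose is given in the sources used here. No label says that the 3 libraries of a group came from separate cultures, so the p-values below reflect the spread among these 6 samples alone, which may be technical. The deposited values are FPKM, reads scaled to exon length and to the library's assigned reads, and the assigned reads numbered 17525090 to 18341370 in the nattokinase libraries and 15044778 to 16496433 in the control libraries.

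Endothelial identity is kept by several families of DNA-binding proteins that act on shared enhancers. ETS factors, to which Ets1, Ets2, Fli1 and Erg belong, bind a GGAA core found at nearly every endothelial gene, and Erg and Fli1 are the members most tied to vascular identity. Sox7 and Sox17 are SoxF factors of arterial and vascular specification, while Tal1 and its adaptor Lmo2 form a complex that starts blood and endothelial fates. Prox1 is the master factor of lymphatic endothelium, and the forkhead factor Foxc2 shapes lymphatic valves.

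The 4 ETS genes code for closely related DNA-binding domains, so the coding stretch that starts this domain's shared part is shown to make plain how far their transcripts can be told apart. The lines below hold 120 bases each, aligned without gaps, 5′ to 3′ on the coding strand, with capitals at positions that are not the same in all 4 genes.
Erg: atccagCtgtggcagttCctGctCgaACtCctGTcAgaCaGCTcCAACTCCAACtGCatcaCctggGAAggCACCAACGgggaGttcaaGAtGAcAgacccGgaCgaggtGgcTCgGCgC
Fli1: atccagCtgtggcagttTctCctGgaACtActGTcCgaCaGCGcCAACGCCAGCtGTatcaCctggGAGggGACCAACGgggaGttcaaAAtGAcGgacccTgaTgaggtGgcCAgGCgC
Ets1: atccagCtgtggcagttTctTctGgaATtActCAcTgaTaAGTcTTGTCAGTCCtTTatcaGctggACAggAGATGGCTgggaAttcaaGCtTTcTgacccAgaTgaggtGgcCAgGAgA
Ets2: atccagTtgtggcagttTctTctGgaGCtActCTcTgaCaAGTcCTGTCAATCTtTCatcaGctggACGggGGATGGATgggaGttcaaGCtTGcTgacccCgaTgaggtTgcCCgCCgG
These sequences come from the GENCODE M21 transcripts (GRCm38). The Erg stretch lies at chr16:95361196-95361315 in exon 10 of its transcript and that of Fli1 at chr9:32424175-32424294 in exon 9, both on the minus strand. The Ets1 stretch spans chr9:32752810-32754224 across exons 7 and 8, and that of Ets2 spans chr16:95717859-95718934 across exons 9 and 10, both on the plus strand with the intron left out. Erg and Fli1 were identical at 103 of the 120 bases (85.8%), and Ets1 and Ets2 at 100 (83.3%). Between those pairs identity was 64.2% to 67.5%, and 68 positions were shared by all 4. The longest run of identical bases between whole transcripts was 22 for Erg with Fli1, 21 for Fli1 with Ets1, 19 for Ets1 with Ets2 and 13 for Fli1 with Ets2. Exact matches between these genes were therefore short, and Foxc2 shared a longer run of 53 bases with its paralog Foxc1. None of the exons of Ets1, Ets2, Fli1, Foxc2, Erg, Lmo2, Tal1 or Sox7 overlaps those of another annotated gene.

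Levels of the 10 genes spanned a wide range, and the order of the means was the same in nattokinase and control libraries for the 6 genes with reads in both groups. Ets2 averaged 15.8 ± 2.12 FPKM over the 6 libraries (SD), Ets1 13.4 ± 1.65, Fli1 2.54 ± 0.35 and Foxc2 1.12 ± 0.18. Lmo2 followed at 0.077 ± 0.048 FPKM, and the other 5 genes had at most 2 reads in any library. The ranges of Ets2 and Ets1 over the 6 libraries overlapped, although Ets2 lay above Ets1 in 6 of 6 libraries. From Ets1 to Fli1 the mean dropped 5.28-fold, from Fli1 to Foxc2 2.28-fold and from Foxc2 to Lmo2 14.4-fold, in each case with ranges that did not overlap. Among the 10913 genes of all kinds that passed the filter on low values (at least 1 FPKM in at least 3 libraries), 69.9% had a lower mean than Ets2 and 65.5% a lower mean than Ets1. The corresponding shares were 16.7% for Fli1 and 2.40% for Foxc2.

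**Figure D1:**
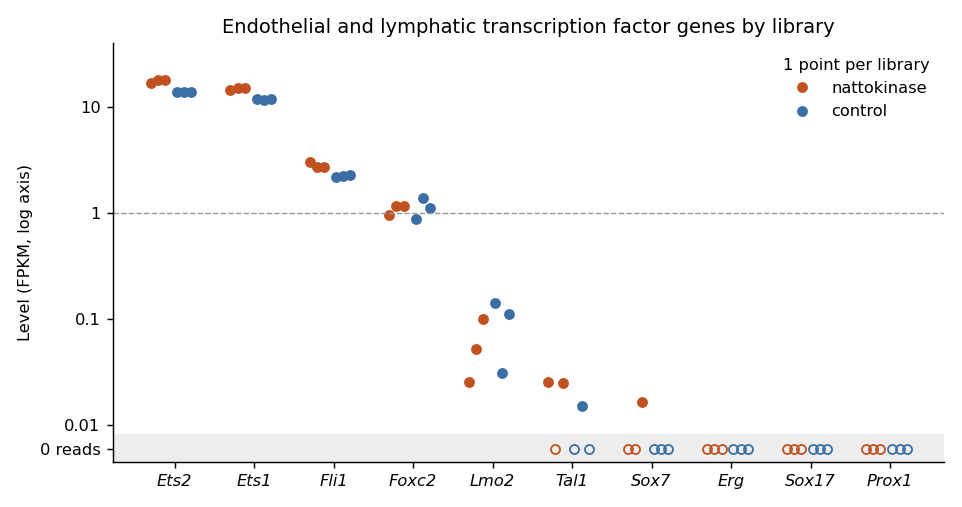
FPKM of the 10 genes on a log axis, with 1 point per library, nattokinase left of control, open points in the grey strip for 0 reads, and a dashed line at 1 FPKM. Ets2 and Ets1 lie between 11.8 and 18.2 FPKM, Fli1 and Foxc2 between 0.883 and 3.07, and Erg, Sox17 and Prox1 at 0 in all 6 libraries.

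Nattokinase-treated cells held more mRNA of Ets2 and Ets1 than control cells, 1.27-fold and 1.25-fold, and no member was called lower. Of the 10 genes, 4 passed the filter and were tested with limma, of which 2 rose and 0 fell at a Benjamini-Hochberg adjusted p of 0.05, adjusted over all 10913 genes. Over all tested genes that test called 8.85%, with 5.61% higher and 3.24% lower. Of the 4 tested members, 3 had an unadjusted p under 0.05, and 0 of these were lower. The share of all tested genes at that unadjusted cut-off was not counted, here or for the lists below. Counts at that cut-off therefore cannot show an excess over all genes, in the members or in any list. Limma-voom on the recovered reads also called 2 members higher and 0 lower, beside 872 higher and 462 lower among all 10913 genes.

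Ets2, a widely expressed ETS factor that acts downstream of MAP kinases, is at chromosome 16, 95702075 to 95721051 (GRCm38, plus strand). It had 17.0, 18.2 and 17.9 FPKM in the nattokinase libraries, against 13.9, 14.0 and 13.9 FPKM in the control libraries. All 3 nattokinase libraries lay above all 3 controls, and the controls differed by less than the treated libraries. The group means were 17.7 ± 0.66 and 13.9 ± 0.085 FPKM (SD, n = 3 each), a ratio of 1.27. The log2 fold change was 0.33 (SE 0.047, limma adjusted p = 0.0024), taken on log2(FPKM + 1), a scale that understates changes of low genes.

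Ets1, an ETS factor induced in endothelial cells that form new vessels, is at chromosome 9, 32636221 to 32757820 (plus strand). Its levels were 14.5, 15.02 and 15.2 FPKM with nattokinase, against 11.97, 11.8 and 12.1 FPKM in the controls. Here too the groups did not overlap. The means were 14.9 ± 0.35 and 11.9 ± 0.16 FPKM (SD, n = 3 each), a ratio of 1.25, with a log2 fold change of 0.30 (SE 0.046, limma adjusted p = 0.0034). Between 1499 and 2362 reads per library lay behind the Ets1 values and 1218 to 1897 behind those of Ets2, so counting error alone was 2.06% to 2.87% of a value. Ets1 and Ets2 kept their calls in 15 of 15 alternative analyses each, with adjusted p up to 0.029 and 0.027.

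Fli1, an ETS factor of blood and vessels and the nearest relative of Erg, is at chromosome 9, 32422204 to 32542861 (minus strand). Its levels were 3.07, 2.72 and 2.72 FPKM in the nattokinase libraries, against 2.21, 2.25 and 2.28 FPKM in the controls. The groups did not overlap, and nattokinase replicate 1 was the highest library. The means were 2.84 ± 0.20 and 2.25 ± 0.033 FPKM (SD, n = 3 each), a ratio of 1.26 like those of Ets1 and Ets2. With 118 to 193 reads per library, counting error was 7.20% to 9.21% of a value. The log2 fold change of 0.24 (SE 0.069, 95% interval 0.085 to 0.39) did not pass the threshold (limma adjusted p = 0.063).

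Groups that did not overlap were common in these libraries, at 28.8% of all tested genes and 17.4% with nattokinase higher, so that feature of Ets1, Ets2 and Fli1 is not particular to them. In the order of log2 fold changes, 96.7% of tested genes lay below Ets2, 96.0% below Ets1 and 94.0% below Fli1. The median of the 4 tested members was 0.27, beside 0.012 for all tested genes. As the genes were chosen with earlier results of these data known, these comparisons with all genes are descriptions only.

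Foxc2, the lymphatic valve factor, is at chromosome 8, 121116171 to 121118895 (plus strand). It had 0.956, 1.17 and 1.18 FPKM with nattokinase, against 0.883, 1.39 and 1.11 FPKM in the controls. The groups overlapped, and the lowest and the highest of the 6 values were both controls. The means were 1.10 ± 0.13 and 1.13 ± 0.25 FPKM (SD, n = 3 each), from 39 to 59 reads per library, with a log2 fold change of -0.01 (limma adjusted p = 0.96). Its 95% interval ran from -0.25 to 0.23, or from 0.840-fold to 1.17-fold on this scale, so changes within that range could not be told from the spread among libraries. Its paralog Foxc1, a vessel and lymphatic factor, averaged 3.66 ± 0.34 and 3.49 ± 0.23 FPKM (adjusted p = 0.73), and the ratio of Foxc2 to Foxc1 was 0.292, 0.302 and 0.308 with nattokinase, against 0.240, 0.393 and 0.344 in the controls.

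**Figure D2:**
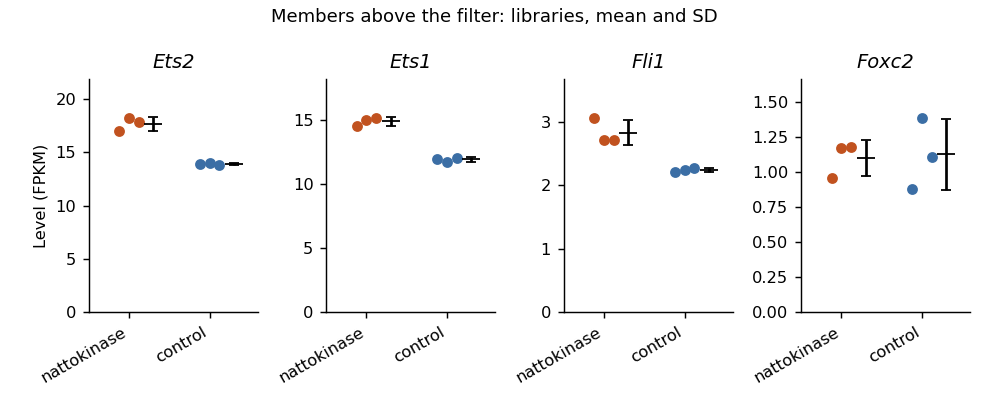
FPKM of the 4 tested genes, each on its own linear axis from 0, with 1 point per library and the group mean with its SD at the side. The nattokinase points lie above all control points for Ets2, Ets1 and Fli1, and among them for Foxc2.

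Lmo2, the LIM-only adaptor of the Tal1 complex, was detected in 6 of 6 libraries but only by 1 to 5 reads each. Its levels were 0.026, 0.053 and 0.101 FPKM with nattokinase, against 0.142, 0.031 and 0.112 FPKM in the controls. The groups overlapped. Summed over libraries, 7 reads stood against 10, a ratio per assigned read of 0.620 with an exact 95% interval of 0.200 to 1.80 for counting error only (exact permutation test, two-sided, p = 0.40, where 3 against 3 cannot go below 0.1). Lmo2 lies at chromosome 2, 103957986 to 103981878.

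Tal1, the basic helix-loop-helix partner of Lmo2 at chromosome 4, 115056426 to 115071755, had 2, 0 and 2 reads in the nattokinase libraries, against 0, 1 and 0 in the controls. These 4 reads against 1 give a ratio of 3.54 with an exact 95% interval of 0.351 to 175, so no difference was detectable (exact permutation p = 0.40). Sox7, at chromosome 14, 63943673 to 63950732, had 1 read in nattokinase replicate 3 and 0 reads elsewhere (exact permutation p = 1).

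Erg, Sox17 and Prox1 had 0 reads in all 6 libraries. A count of 0 allows up to 3 reads, which corresponds to at most 0.047 to 0.058 FPKM per library for Erg, 0.034 to 0.042 for Sox17 and 0.019 to 0.024 for Prox1, for counting error only. Erg lies at chromosome 16, 95359169 to 95586593, Sox17 at chromosome 1, 4490931 to 4497354, and Prox1 at chromosome 1, 190118035 to 190170714, all on the minus strand. The limit for Erg lies far below the lowest level of Fli1, 2.21 FPKM, in a gene of nearly the same exon length (3466 bases for Erg and 3486 for Fli1).

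The 4 ETS members sit in pairs on their chromosomes. Fli1 and Ets1 are separated by 93359 bases on chromosome 9, with 0 protein-coding genes between them, and both were expressed. Erg and Ets2 are separated by 115481 bases on chromosome 16, with 0 annotated genes between them, yet Ets2 was the most abundant member and Erg was not detected. The windows around a start of Ets2 and of Erg are printed from RefSeq (GRCm38.p6), from 250 bases before to 50 bases after the start. Capitals mark the ETS core GGAA on either strand.
Ets2: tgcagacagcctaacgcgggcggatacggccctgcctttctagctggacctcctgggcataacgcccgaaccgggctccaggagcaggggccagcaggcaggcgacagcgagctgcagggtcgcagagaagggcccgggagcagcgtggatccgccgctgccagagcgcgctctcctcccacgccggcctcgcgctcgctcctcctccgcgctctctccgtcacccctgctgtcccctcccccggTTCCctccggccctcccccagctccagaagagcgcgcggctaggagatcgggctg
Erg: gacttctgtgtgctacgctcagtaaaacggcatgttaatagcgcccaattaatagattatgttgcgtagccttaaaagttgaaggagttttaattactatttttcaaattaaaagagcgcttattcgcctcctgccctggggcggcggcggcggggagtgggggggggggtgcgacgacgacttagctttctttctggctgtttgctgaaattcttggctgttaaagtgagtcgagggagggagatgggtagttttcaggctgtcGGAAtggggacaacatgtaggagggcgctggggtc
The Ets2 window is chr16:95702157-95702456 on the plus strand, and the Erg window is chr16:95586544-95586843 on the minus strand, at the most upstream of its 3 listed starts. Windows were found for 4 of the 10 genes by symbol, 8 windows in all. The Ets2 window held 30 CpG dinucleotides in its 300 bases (71.7% G and C), and the printed Erg window held 16 (50.3%), beside a median of 7 over all 32851 windows. The other Erg starts held 2 and 4, those of Tal1 11 and 22, and those of Prox1 25 and 14. Erg had starts on both sides of that median, and both Prox1 starts lay above it. Ets2 was the only gene with a window that passed the filter on low values, and a link of CpG content to these levels was not tested. Both printed windows hold 1 GGAA core, and 96.0% of all windows hold at least 1. Neither holds the longer ETS site CCGGAAGT (3.89% of windows), the AP-1 site TGANTCA (7.81%) or a CArG box of SRF (1.63%), all searched on both strands. The TEAD motif GGAATG (14.7% of windows) has 1 match in the printed Erg window, where it overlaps the printed GGAA, and is not in the Ets2 window. The other Erg starts hold 4 and 2 GGAA cores, and the start with 4 also holds 1 TEAD match.

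Ets1 and Ets2 kept a nearly constant ratio to each other. The ratio of Ets2 to Ets1 was 1.17, 1.21 and 1.18 with nattokinase, against 1.16, 1.19 and 1.15 in the controls, so it stayed within 1.15 to 1.21 while both levels differed between the groups. Their log2(FPKM + 1) values had a Pearson correlation of 0.99 over the 6 libraries, which includes the difference between the groups. Within a group they did not follow the same order, since control replicate 2 was the highest control for Ets2 and the lowest for Ets1. The ratio of Fli1 to Ets1 was 0.211, 0.181 and 0.179 with nattokinase and 0.185, 0.191 and 0.189 in the controls, and the correlation of Fli1 was 0.89 with Ets1 and 0.86 with Ets2. Foxc2 had correlations between -0.17 and 0.05 with these 3 genes.

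The genes whose pattern over the 6 libraries was most like that of each tested member, among genes with a mean of at least 10 FPKM, were taken by the highest Pearson correlation, as a description only. They were Fgd3, a guanine nucleotide exchange factor gene, and Actn1, an actin crosslinker gene, for Ets1 (r = 0.999 and 0.998). For Ets2 they were the thrombin receptor gene F2r and the transcription cofactor gene Lbh (r = 0.999 and 0.997). For Fli1 they were Kctd9 and Sbno2 (r = 0.997 and 0.996), and for Foxc2 Serf2 and Nt5c3b (r = 0.993 and 0.991). An r above 0.9 was reached by 434 of 4768 candidate genes with Ets1 and 425 of 4768 with Ets2. It was reached by 276 of 4769 with Fli1 and 41 of 4769 with Foxc2.

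Among the other genes of the ETS family, expression was broad and few changed. Counting the 4 members, 26 ETS genes were listed, of which 15 passed the filter, 3 rose and 0 fell, with a median log2 fold change of 0.089. Besides Ets1 and Ets2 the gene that rose was Elk3, a ternary complex factor that represses and activates SRF targets, with 21.9 ± 0.81 FPKM with nattokinase and 19.1 ± 0.43 FPKM in controls (log2 fold change 0.19, limma adjusted p = 0.034). The call of Elk3 was lost in 10 of the 15 alternatives: when control replicate 2, control replicate 3 or a nattokinase library was left out (at most 0.15 for the adjusted p), with the filter at 0.1 FPKM (0.052) or no filter (0.13), after rescaling to equal protein-coding totals (0.071), without the trend and robust prior (0.067) and with the replicate block (0.092). The family was led by Erf, a repressor, at 26.7 ± 0.52 FPKM with nattokinase and 25.5 ± 0.74 in controls (adjusted p = 0.40), and by Elk3 and Elf4. Elf4 had 18.2 ± 0.56 FPKM with nattokinase and 20.1 ± 0.60 in controls (adjusted p = 0.12). Ets2 and Ets1 ranked 4 and 5 of the 26 by mean FPKM, Fli1 ranked 15, and 6 of the 26 had 0 reads in all libraries, among them Etv2, the pioneer factor of embryonic endothelium. Ets1 and Ets2 together made up 17.2% to 18.0% of the summed FPKM of the family in the nattokinase libraries and 15.2% to 15.4% in the controls.

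**Figure D3:**
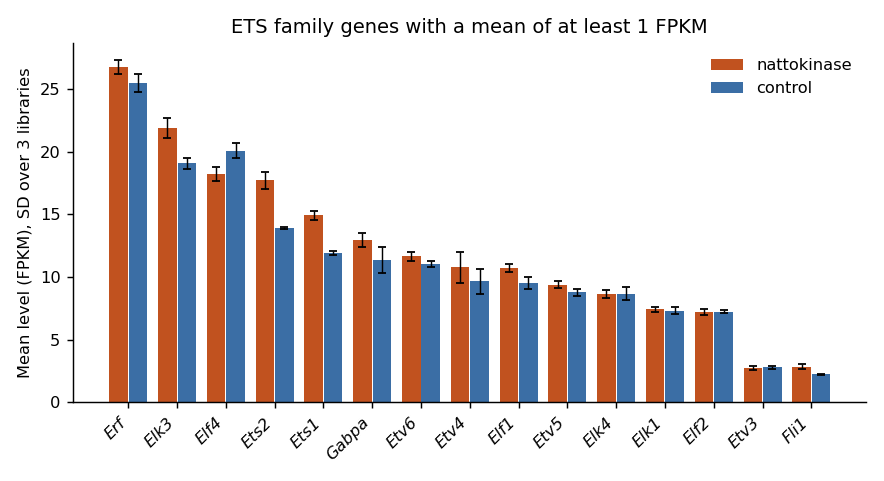
Mean FPKM of the 15 ETS family genes with a mean of at least 1 FPKM, with nattokinase left of control and error bars for the SD over 3 libraries. Ets2 and Ets1 stand at 17.7 and 14.9 FPKM with nattokinase and 13.9 and 11.9 in controls, behind Erf, Elk3 and Elf4, and Fli1 is the lowest of those shown.

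Most listed partners and relatives of Tal1 and Lmo2 were present although Tal1 and Lmo2 were nearly absent. Of the 15 listed genes, 5 stayed under 1 FPKM in all 6 libraries. These were Lyl1 (2 to 10 reads per library), Cbfa2t3 (at most 4), Gata1 and Ldb2 (at most 2 each) and Lmo1 (at most 1). The other 10 passed the filter, and 0 rose and 0 fell with limma. Of these 10, 2 had an unadjusted p under 0.05 and limma-voom called 1 higher. Their median log2 fold change was 0.0078. Tcf3, the E protein that pairs with Tal1, had 44.5 ± 0.87 FPKM with nattokinase and 45.2 ± 0.41 FPKM in controls (adjusted p = 0.81). Lmo4, a relative of Lmo2, had 30.7 ± 1.001 and 27.0 ± 1.11 FPKM (adjusted p = 0.052, or 0.031 with limma-voom), and Ssbp4 had 23.6 ± 0.55 and 24.5 ± 1.08 FPKM (adjusted p = 0.59).

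In the SOX family 17 genes besides Sox7 and Sox17 were listed, of which 4 passed the filter. With limma 0 rose and 0 fell, while 2 had an unadjusted p under 0.05 and limma-voom called 1 higher. Sox18, the remaining SoxF gene and an inducer of Prox1 in the mouse embryo, had 0.616, 0.493 and 0.538 FPKM with nattokinase, against 0.914, 0.451 and 0.748 FPKM in the controls. These groups overlapped, and Sox18 did not pass the filter. The SOX genes with the highest levels were Sox4 (20.5 ± 1.54 FPKM with nattokinase and 19.1 ± 0.63 in controls, adjusted p = 0.35), Sox12 (9.09 ± 0.23 and 9.15 ± 0.11, adjusted p = 0.94) and Sox11 (2.61 ± 0.25 and 1.99 ± 0.10, adjusted p = 0.060, or 0.0083 with limma-voom and 0.048 without the trend and robust prior).

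Of 30 other factors with known roles in endothelial or lymphatic cells, 18 passed the filter, 4 rose and 0 fell, with a median log2 fold change of 0.071. Of the 18, 6 had an unadjusted p under 0.05, and limma-voom called 4 higher and 1 lower. Klf2, the flow-responsive factor of quiescent endothelium, had 5.49, 5.96 and 5.61 FPKM with nattokinase, against 2.77, 3.89 and 2.99 FPKM in the controls (log2 fold change 0.67, limma adjusted p = 0.0019). Mef2a, a MADS-box factor upstream of Klf2, had 6.99 ± 0.37 and 4.96 ± 0.40 FPKM (log2 fold change 0.42, limma adjusted p = 0.0037). Maf, a factor found in lymphatic endothelium among other cells, had 31.5 ± 2.84 and 24.3 ± 0.87 FPKM (log2 fold change 0.36, limma adjusted p = 0.0068). Elk3, given above, was the remaining one that rose. Nr2f1 and Foxo1, named after their values were seen, had lower means with nattokinase in groups that did not overlap. Nr2f1 had 1.27 ± 0.14 FPKM with nattokinase and 1.80 ± 0.25 in controls (limma adjusted p = 0.083). Foxo1 had 3.94 ± 0.22 FPKM with nattokinase and 4.52 ± 0.26 in controls (limma adjusted p = 0.18). Gata6 had 21.1 ± 0.44 FPKM with nattokinase and 21.7 ± 0.37 in controls (adjusted p = 0.66), and Nr2f2, the vein and lymphatic partner of Prox1, had 10.3 ± 0.59 and 10.4 ± 1.07 FPKM (adjusted p = 0.96). Exons of Mef2a, Maf, Elk3, Nr2f1, Foxo1, Gata6, Nr2f2 and Sox4 overlap those of a gene on the other strand. Among other genes named in this text with reads, so do those of Actn1, Alas2, Cbfa2t3, Cd34, Eng, Krt8, Lyl1, Nt5c3b, Pdgfra, Serf2 and Twist2. Exons of Col3a1, Pdgfra and Serf2 overlap those of a gene on the same strand. As strand use is not stated, reads of the overlapping genes are not separable.

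**Figure D4:**
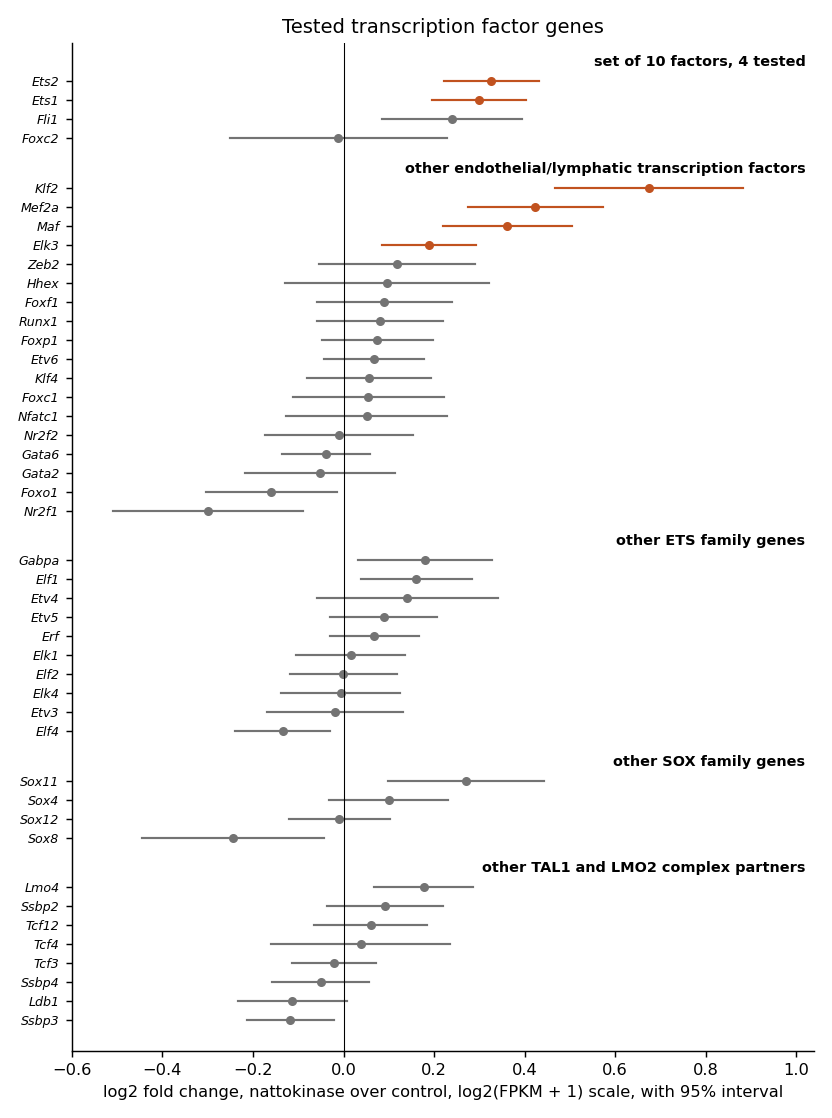
Log2 fold changes of the tested transcription factor genes, nattokinase over control on the log2(FPKM + 1) scale, with 95% intervals that are not adjusted for the number of genes. Genes past the adjusted threshold are orange and the rest grey, each gene shown once. Ets2 and Ets1 lie at 0.33 and 0.30, and Fli1 and Foxc2 at 0.24 and -0.01.

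Of the blood endothelial genes that ETS factors are known to serve most were low. So were 9 of the 14 lymphatic genes, while Pdpn, Gja1, Nrp2 and Flt4 were well expressed. Of 22 blood endothelial genes, 20 stayed under 1 FPKM in all 6 libraries and 11 had at most 3 reads in any. Tie1 had 0 reads, Cdh5, the VE-cadherin gene, at most 1 read, Pecam1 at most 3 and Kdr 9 to 22. Flt1, a VEGF receptor gene, was 1 of 2 that passed the filter and 1 of 1 called, with 4.84, 4.64 and 5.05 FPKM with nattokinase, against 2.86, 2.41 and 2.54 FPKM in the controls (log2 fold change 0.70, limma adjusted p = 0.00033). Cd34 had 2.27 ± 0.36 and 2.997 ± 0.062 FPKM (adjusted p = 0.070, or 0.0095 with limma-voom, which called it lower), and Eng, not tested, had 0.455 ± 0.10 and 0.480 ± 0.052 FPKM. Of 14 lymphatic genes 5 passed the filter, 9 stayed under 1 FPKM in all 6 libraries and 5 had at most 3 reads in any, and 0 rose and 1 fell. It was Pdpn, the podoplanin gene, a Prox1 target that fibroblasts also express, at 102 ± 2.66 FPKM with nattokinase and 119 ± 5.96 in controls (limma adjusted p = 0.027). The call of Pdpn held without control replicate 1 and was lost when any other library was left out (adjusted p up to 0.10), and also with no filter (0.12), without the trend and robust prior (0.060) and with the replicate block (0.063). Flt4, which encodes the receptor for the lymphatic growth factor VEGF-C, had 10.7 ± 0.074 and 11.2 ± 0.63 FPKM (adjusted p = 0.54), Gja1 59.6 ± 0.95 and 63.0 ± 0.43 (adjusted p = 0.29) and Nrp2 17.5 ± 0.94 and 17.3 ± 0.60 (adjusted p = 0.94). Lyve1 had 0 reads in all 6 libraries.

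Markers of other cell types stood beside these values as follows. Of 14 fibroblast and mural markers 9 passed the filter, led by Col1a1 at 1236 ± 36.2 FPKM with nattokinase and 1403 ± 67.3 in controls and Col1a2 at 511 ± 11.3 and 524 ± 16.0, and their median log2 fold change was 0.029. With limma 0 of them rose and 1 fell, Col3a1, named after its values were seen, at 95.8 ± 1.14 FPKM with nattokinase and 144 ± 2.62 in controls (adjusted p = 7.7e-05), while 7 of the 9 had an unadjusted p under 0.05 and limma-voom called 1 higher and 2 lower. Col1a1 (adjusted p = 0.084) was called lower with limma-voom (0.0072), after rescaling to equal protein-coding totals (0.041) and without control replicate 1 (0.037). Other markers of the list, also named after their values were seen, had higher means with nattokinase, in groups that did not overlap and without passing the limma threshold. Pdgfra had 8.32 ± 0.41 FPKM with nattokinase and 7.45 ± 0.22 in controls, and Pdgfrb, the one limma-voom called higher (adjusted p = 0.048), had 19.4 ± 1.67 and 17.0 ± 0.73. Twist1 had 13.9 ± 1.24 FPKM with nattokinase and 11.7 ± 1.11 in controls, and Twist2 had 2.48 ± 0.25 and 2.06 ± 0.097 (adjusted p 0.11 to 0.20 over these 4 genes). Postn, also named after its values were seen, was lower in the mean, in groups that overlapped. It had 2.69 ± 0.43 FPKM with nattokinase and 3.29 ± 0.29 in controls (limma adjusted p = 0.19). Of the 14 markers, 5 stayed under 1 FPKM in all 6 libraries, and Thy1 had 0 reads. The summed level of the list, in which Col1a1 and Col1a2 weigh most, was 1869 to 1939 FPKM with nattokinase and 2085 to 2232 FPKM in controls. Of 9 leukocyte markers 6 had 0 reads in all libraries, Ptprc among them, Cd14 had 5.78 ± 0.20 and 5.44 ± 0.59 FPKM, and Cd68 had 2.42 ± 0.35 and 1.19 ± 0.33 FPKM (limma adjusted p = 0.0094, or 0.095 with no filter). The summed leukocyte level was 8.10 to 8.36 FPKM with nattokinase and 6.02 to 7.44 FPKM in controls. The summed epithelial level, from Krt8 and Krt14 for the most part, was 7.30 to 8.92 FPKM with nattokinase and 6.48 to 7.87 in controls, and that of 10 erythroid and megakaryocyte markers, led by Itga2b and Alas2, 1.03 to 1.31 and 0.818 to 1.297. The part of these markers in the rise of Ets1 and Ets2 was not tested, and in bulk RNA more cells of a type and more RNA per cell cannot be told apart. Protein-coding genes took 98.3% to 98.4% of reads with nattokinase and 95.4% to 96.7% in controls. After rescaling to equal protein-coding totals Ets2 still had a log2 fold change of 0.29 (limma adjusted p = 0.0041) and Ets1 of 0.27 (limma adjusted p = 0.0063). That rescaling moved the share of all called genes that were higher to 49.0%, against 63.4% with the values as deposited.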

How the data were processed

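The authors deposited 1 table per sample with FPKM for 55536 mouse Ensembl genes, as found from the values: each value times the merged exon length of GENCODE M21 was within 0.05 of a whole multiple of 1 step per library for 100% of values above 0. Whether reads or fragments were counted is not stated, and intervals and limits cover counting error only. Per the submitters' processing notes DESeq2 1.22.1, featureCounts 1.6.0, HISAT2 2.1.0 and Trimmomatic 0.38 are named beside CASAVA, FastQC and MultiQC, without role or order, and the build is named as GRCh38, a human build, although the identifiers are from mouse. Names and coordinates come from GENCODE M21 (GRCm38).

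Genes reaching 1 FPKM in 3 or more libraries entered limma 3.58.1 (R 4.3.3) as log2(FPKM + 1) values (linear model on group, intensity trend, robust prior, two-sided, Benjamini-Hochberg over 10913 genes at 0.05). Ratios given as folds compare group means of FPKM. The script was checked on simulated libraries with known changes, whose spread was set by hand and not taken from these data. That check tests the code and says nothing on single calls. Replicates within a group correlated at 0.992 to 0.995 and no pair was identical. The 10 genes, the 6 lists of related genes and the 4 marker lists were chosen with earlier results of these data known. Genes named in the text are the members, in each list of related genes the 3 with the highest mean and up to 4 called with the smallest p, the 2 highest of each marker list, the genes most like each tested member, and Sox18, Nr2f2, Foxc1, Etv2, Flt4, Pdpn, Lyve1, Cdh5, Pecam1, Kdr and Tie1. Ptprc, Col3a1, Pdgfra, Pdgfrb, Twist1, Twist2, Postn, Thy1, Nr2f1 and Foxo1 were named after their values were seen. So were Lyl1, Cbfa2t3, Gata1, Ldb2 and Lmo1. A total of 15 alternatives was tried, covering the test, pseudocount, filter, scaling, prior, replicate block and each left-out library. Sequences come from RefSeq and GENCODE. Figures were drawn with matplotlib 3.10.9.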

Additional observations from a re-analysis of the deposited data

How the results depend on the processing

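Ets1 and Ets2 were called higher in all 15 alternatives, with log2 fold changes of 0.27 to 0.32 and 0.29 to 0.36 (adjusted p 0.00013 to 0.029 and 0.00011 to 0.027). Fli1 stayed above 0 throughout (0.20 to 0.33, adjusted p 0.040 to 0.19) and was called only without the trend and robust prior, at 0.24 (adjusted p = 0.040). Foxc2 was called in none of the 15 (adjusted p 0.57 to 0.99), and its log2 fold change ran from -0.0973 to 0.0748 over the left-out libraries. No label says whether the replicate numbers pair the samples. Deviations of same-numbered libraries correlated at -0.09 to -0.04 and those of other pairs at -0.04 to 0.09. With 3 libraries per group these values cannot decide whether samples were paired. With the replicate block 439 genes were higher and 249 lower, and Ets2 and Ets1 kept their calls (adjusted p = 0.0089 and 0.015). Of all genes, 221 were higher and 109 lower with no filter on low values, and 330 to 726 were higher and 193 to 481 lower over the left-out libraries, against 612 and 354 with all 6. Of the 47 tested genes of the 6 related lists, 5 rose and 1 fell. With no filter 3 rose and 0 fell, with limma-voom 3 fell, with the replicate block 0 fell, and over the left-out libraries 0 to 1 fell. Maf and Cd68 lost their calls only with no filter (adjusted p = 0.076 and 0.095). Calls were gained with limma-voom by Sox11, Lmo4, Cd34, Col1a1 and Pdgfrb, and by 1 of the 30 other endothelial or lymphatic factors, called lower. The cause of these moves was not tested. Uncalled genes whose sign turned were Nrp2 (-0.0009 with median-of-ratios scaling, -0.0228 with protein-coding totals, and -0.0131 to 0.0533 over the left-out libraries), Krt14 (-0.0146 with protein-coding totals and -0.127 to 0.1013) and Nt5c3b (-0.0087 and -0.0306 with these scalings and -0.0448 to 0.0546). Over the left-out libraries the values also turned for Sox12 (-0.0279 to 0.004), Cd14 (-0.001 to 0.1255), Nr2f2 (-0.0747 to 0.0592) and Serf2 (-0.0467 to 0.036). Depth limits the genes at 5 reads or fewer, where only large ratios could be seen.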
